A study of Drosophila melanogaster with 6 samples.

Results

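The odorant-binding proteins of Drosophila melanogaster were followed in whole male flies fed control food or food with lithocholic acid (LCA). Members were all genes whose symbol is Obp followed by a number. The gene table listed 51 of them, and 47 had a probe set of their own among 11982 measured genes. Obp83a, Obp50b, Obp50c and Obp57d had none here. The protein lush, also called Obp76a, is an odorant-binding protein outside the naming rule and is used below as a marker. Labelled RNA was measured on 6 Affymetrix arrays, 3 per diet, each from a pool of 10 flies. All flies were wild-type males of strain W1118 (a white-eyed laboratory stock), aged 30 days. The treated group had 50 µmol/l LCA in its food, and the control group was kept on control food. LCA is a secondary bile acid, formed in the vertebrate gut by bacteria. No label says whether the pools were raised in separate vials, so the p-values reflect only the spread among these pools, which may be partly technical. The precision is limited by 3 arrays per diet.

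Odorant-binding proteins are small secreted proteins with a hydrophobic pocket that is braced by disulphide bonds. Support cells of smell and taste hairs release them into the fluid around the receptor neurons, where they bind odorants, pheromones or tastants. Many family members are made elsewhere in the fly, including fat body, glia and the glands of the male tract, where some are passed to the female in the seminal fluid. Each is named after the band of the polytene chromosome map where its gene lies, so genes that share a number lie near each other.

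Values are log2 signals as deposited, 1 probe set per gene. A gene was called bright when its mean over the 6 arrays exceeded 8.77, the 75th percentile of all gene means, and dim when it lay below their median of 7.40. Probe sets differ in how well they bind, so these classes describe the brightness of a probe set and not the amount of transcript of 1 gene against another. As a check of the labelled whole males, 13 of 14 measured genes of the male tract were bright, with Acp98AB, an accessory gland protein, at a mean of 13.52. Orco, the co-receptor that most odorant receptors need, was dim at 3.56. Control replicate 1 stood apart from the other arrays, at −42.7 on the first principal component against −15.4 to 21.4. Testis markers were 0.50 higher in LCA arrays (median of 14 genes), photoreceptor markers 0.45 higher (6 genes), fat body markers at −0.27 (8 genes) and haemocyte markers at −0.29 (8 genes). The log2 difference between 3′ and 5′ control probe sets, a measure of how intact the RNA was, averaged 3.24 ± 0.24 for the control diet and 3.50 ± 0.090 for LCA (SD over 3 arrays per diet). On this measure the diets did not overlap, with control arrays at 2.97 to 3.43 and LCA arrays at 3.45 to 3.61. Its part in the differences between diets was not tested.

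Of the 47 genes, 13 were bright (27.7%, where 25% of all genes are by definition), 4 lay between the median and the 75th percentile and 30 were dim. In order of mean signal the bright genes were Obp56g, Obp51a, Obp99c, Obp44a, Obp56d, Obp19d, Obp56f, Obp99b, Obp56a, Obp22a, Obp57a, Obp57c and Obp99a. Obp56g and Obp51a, both known from seminal fluid, had means at the 99.6th and 99.3rd percentile of all genes. Obp85a, with a mean of 3.04, and Obp46a, with 3.08, were the dimmest. Just inside the bright class lay Obp57c at 9.32 and Obp99a at 9.16, and just outside it Obp57b at 8.72 and Obp56e at 8.31. The 3 receptor families were dim throughout. None of 57 odorant receptors, 56 gustatory receptors and 53 ionotropic receptors was bright, and the brightest of these 166 had a mean of 6.96.

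**Figure D1:**
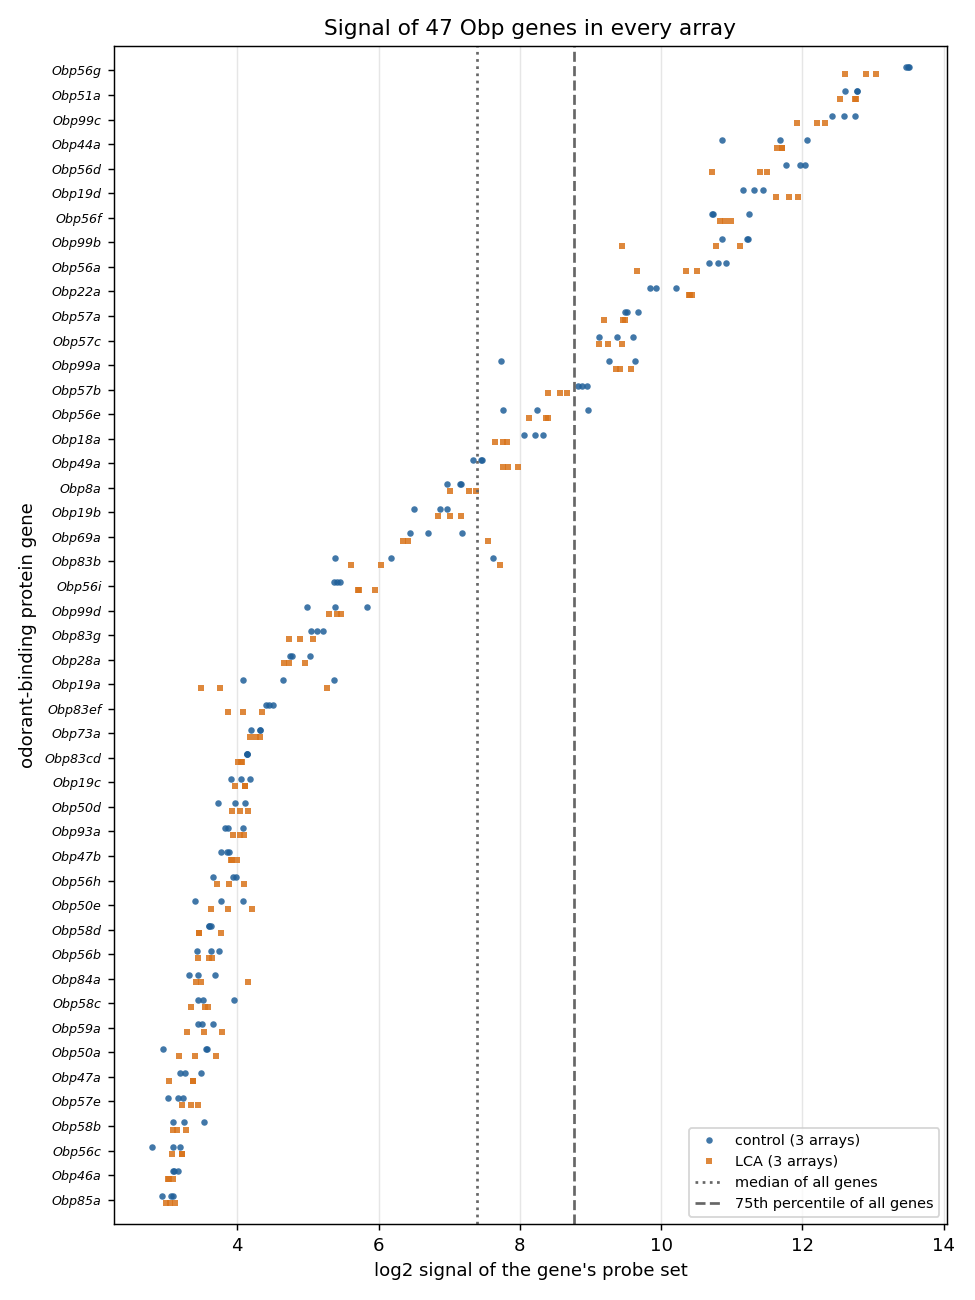
Log2 signal (x axis) of each of the 47 Obp genes (y axis, ordered by mean) in 3 control arrays (blue circles) and 3 LCA arrays (orange squares), with the median (dotted) and 75th percentile (dashed) of all gene means. The 13 bright genes lie to the right of the dashed line at 8.77, and the points of Obp83b and Obp19a are spread more widely than those of most dim genes.

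Of the 7 groups of at least 3 genes that share a map number, 4 held more than 1 brightness class and 3 held dim genes alone. Genes without a probe set of their own are left out of this count. A set shared by Obp50b and Obp50c, of the otherwise dim 50 group, lay above the median, at 7.58. The 47 genes carried 22 map numbers, and those 7 groups hold 31 of the genes. Among the 51 genes of the gene table, 28 lay in 8 runs with no other protein-coding gene between them. The largest run, Obp56a to Obp56f on arm 2R, held 6 genes. Within it Obp56a (mean 10.48), Obp56d (11.57) and Obp56f (10.90) were bright, Obp56e was at 8.31, and Obp56b (3.58) and Obp56c (3.10) were near the bottom of the scale. Bright and dim probe sets thus stood side by side in 1 run. The same held for the neighbours Obp56g (13.17) and Obp56h (3.88). Obp56h is known to affect mating behaviour of males.

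On the X chromosome Obp19d (11.55) ended a run whose other members, Obp19a (4.44), Obp19b (6.89) and Obp19c (4.05), were dim. The run Obp57c, Obp57b and Obp57a was even, at 9.32, 8.72 and 9.47, while Obp57e, with 9 genes between, was at 3.23. Even and dim were the run of Obp59a with Obp58b, Obp58c and Obp58d, between 3.23 and 3.59, and the run of Obp83cd, Obp83ef and Obp83g, between 4.09 and 5.01. Obp50a, Obp50d and Obp50e, between 3.39 and 3.98, were dim as well. Obp50b and Obp50c, which lie between Obp50a and Obp50d, share 2 probe sets here, with means of 6.02 and 7.58. The 99 group on arm 3R is looser, with 1 to 5 genes between members, and held the bright Obp99a, Obp99b and Obp99c beside the dim Obp99d (5.40). By arm, 2R held 26 of the measured genes and 8 of the bright ones, 3R held 11 and 3, X held 6 and 1, 2L held 2 and 1, and 3L held 2 and 0.

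**Figure D2:**
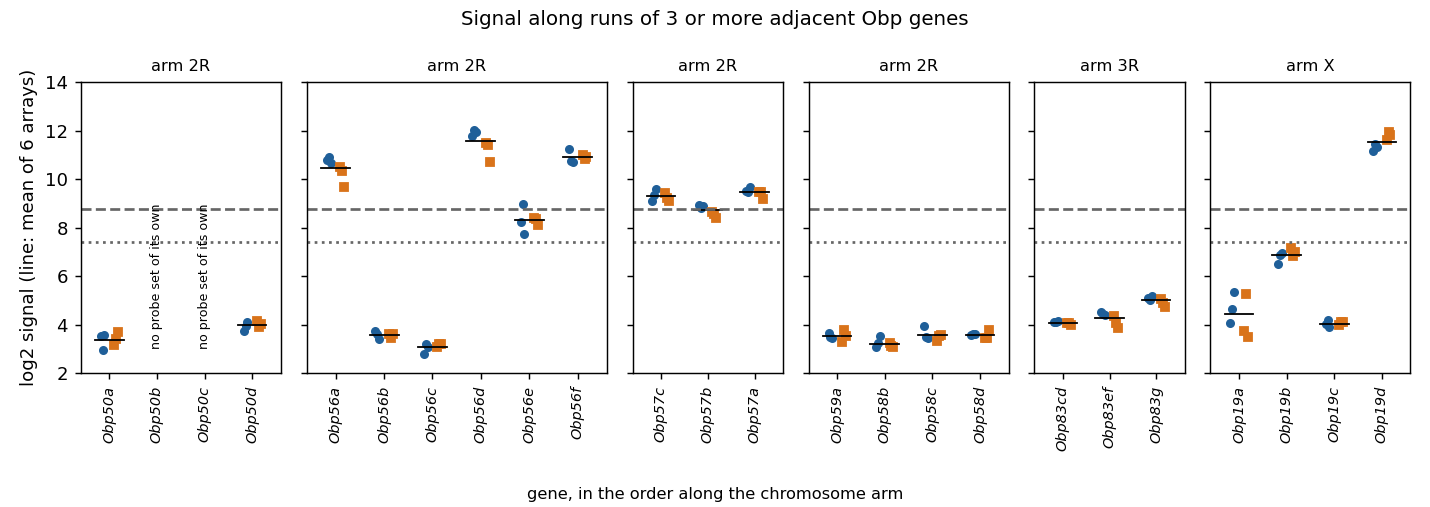
Log2 signal (y axis) of the genes in the 6 runs of 3 or more adjacent Obp genes, in chromosome order (x axis), with 3 control arrays (blue circles), 3 LCA arrays (orange squares) and the mean of 6 (black line). In the run Obp56a to Obp56f the means range from 3.10 to 11.57, while all 4 genes of the run from Obp59a to Obp58d lie between 3.23 and 3.59.

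The diets were compared to ask whether any Obp gene differed with LCA, the study being about this compound and lifespan. By limma, 0 of 47 Obp genes passed an adjusted p of 0.05 over all 18769 probe sets (lowest adjusted p = 0.135), and 0% of all genes did. At an unadjusted p under 0.05, limma counted 11 of 47 (23.4%), against 20.1% of all genes. Of these, 7 were lower in LCA arrays (10.5% of all genes) and 4 were higher (9.63%). The arrays of the diets did not overlap in 13 Obp genes (27.7%), 8 lower and 5 higher, where 26.1% of all genes did not overlap (15.0% lower and 11.2% higher). As a family these shares were near those of all genes with all 6 arrays. When an array was left out, the Obp share at an unadjusted p under 0.05 was 19.1% to 25.5%, while that of all genes ranged from 10.7% (without LCA replicate 3) to 33.8% (without control replicate 3). The Obp share was below that of all genes only without control replicate 3 (25.5% against 33.8%). It was above it without control replicate 1 (21.3% against 17.2%) and without control replicate 2 (19.1% against 11.8%). The same held without LCA replicate 1 (25.5% against 16.4%), LCA replicate 2 (23.4% against 13%) and LCA replicate 3 (23.4% against 10.7%). The median log2 difference, LCA minus control, was −0.0087 over the Obp genes and −0.0016 over all genes, and 26 of the 47 were lower.

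Among the 13 bright Obp genes, 6 had an unadjusted p under 0.05 by limma, against 27.7% of all bright genes. They were Obp56g, Obp99c, Obp56d and Obp56a, lower, and Obp19d and Obp22a, higher. Of the 4 genes of middle brightness 3 did (Obp57b and Obp18a lower, Obp49a higher), against 22.0% of all genes of that class. Of the 30 dim genes 2 did (Obp83ef lower, Obp56i higher), against 15.4% of all dim genes. Lower by at least 1.5-fold at that unadjusted p were 3 of the 47 genes, against 226 of all 11982 genes (1.89%). All 3 were among the 13 bright Obp genes, and 97 of all 2996 bright genes met both conditions. The 3 genes were Obp56d, Obp56g and Obp56a, all from the 56 group. Without LCA replicate 3 none of these genes reached 1.5-fold (−0.47, −0.52 and −0.37), and Obp99b alone met both conditions.

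**Figure D3:**
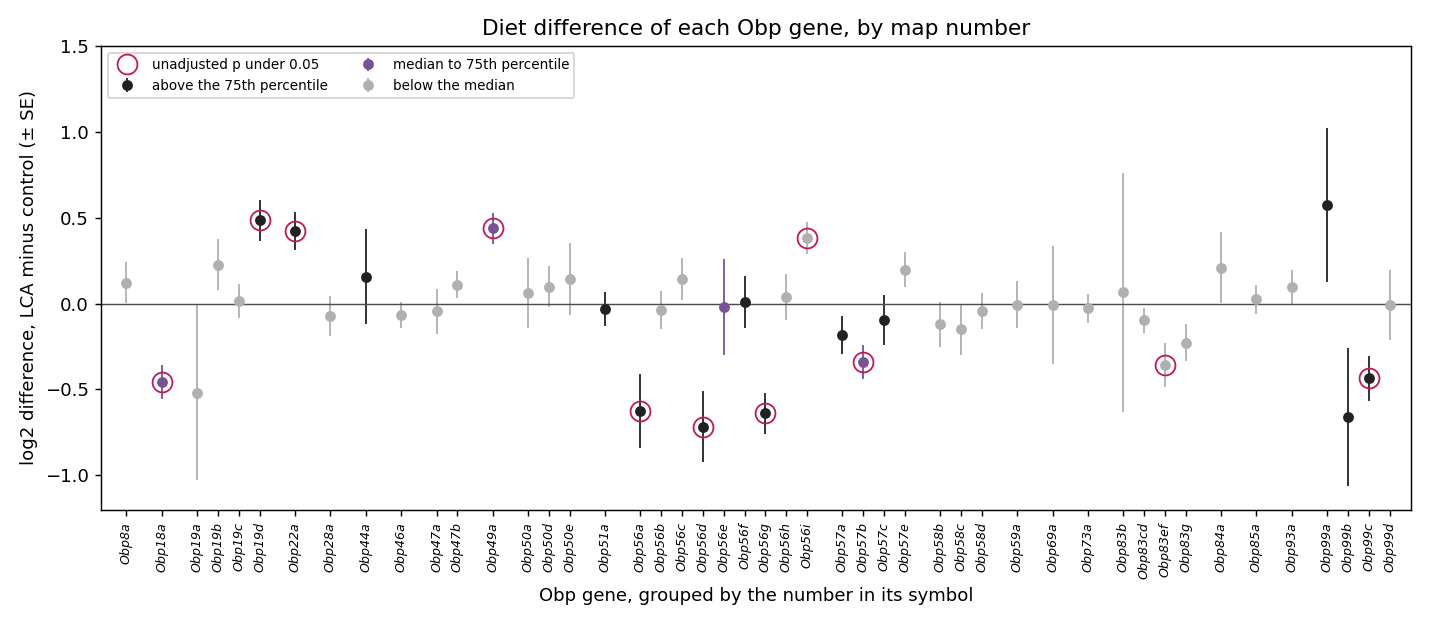
Log2 difference between diets (y axis, LCA minus control, with limma's SE, 3 arrays per diet) for each Obp gene (x axis, grouped by map number), shaded by brightness, with a ring where the unadjusted p was under 0.05. The largest ringed differences are those of Obp56d (−0.72), Obp56g (−0.64) and Obp56a (−0.62), while neighbours such as Obp56f (0.010) lie near 0.

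The seminal fluid members did not move as 1 group. Obp56g is made in the ejaculatory bulb and is needed for the mating plug. It read 13.50, 13.46 and 13.51 in control replicates 1 to 3 and 13.05, 12.90 and 12.61 in LCA replicates 1 to 3. All LCA arrays lay below all control arrays, with LCA replicate 3 the lowest. The difference was −0.64 ± 0.12 (SE), 1.56-fold lower in LCA arrays (limma, adjusted p = 0.135). Ebp, a protein of the same bulb, was 13.42, 13.39 and 13.29 in control and 12.72, 12.31 and 12.18 in LCA arrays, a difference of −0.96 ± 0.14 (limma, adjusted p = 0.0983). In whole flies, fewer cells of a type and less RNA per cell cannot be told apart.

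Obp22a, another seminal fluid protein, went the other way. It read 10.21, 9.84 and 9.93 in control and 10.44, 10.40 and 10.41 in LCA arrays, which stood together above every control array. The difference was 0.42 ± 0.11 (limma, adjusted p = 0.187). The dim Obp56i, also of the seminal fluid, was 5.45, 5.37 and 5.41 in control and 5.73, 5.95 and 5.70 in LCA arrays, again without overlap (0.38 ± 0.094, limma adjusted p = 0.176). Both differences had the sign of 13 of the 14 male tract markers, whose median difference was 0.21 and of which Ebp alone was lower. After centring each marker on its own mean, the median per array was 0.071, −0.15 and −0.22 in control and −0.0081, 0.098 and 0.21 in LCA arrays, and their part in the Obp differences was not tested.

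The remaining seminal members overlapped between diets. Obp51a read 12.78, 12.60 and 12.77 in control and 12.54, 12.75 and 12.76 in LCA arrays, with a difference of −0.032 ± 0.10. Obp56f was 11.24, 10.74 and 10.72 in control and 10.99, 10.83 and 10.91 in LCA arrays, with control replicate 1 the highest. The difference of Obp56f, 0.010 ± 0.15, was negative after median centring (−0.038). Obp56e spread from 7.76 to 8.96 among control arrays and from 8.13 to 8.41 among LCA arrays, and Obp8a differed by 0.12 ± 0.12.

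**Figure D4:**
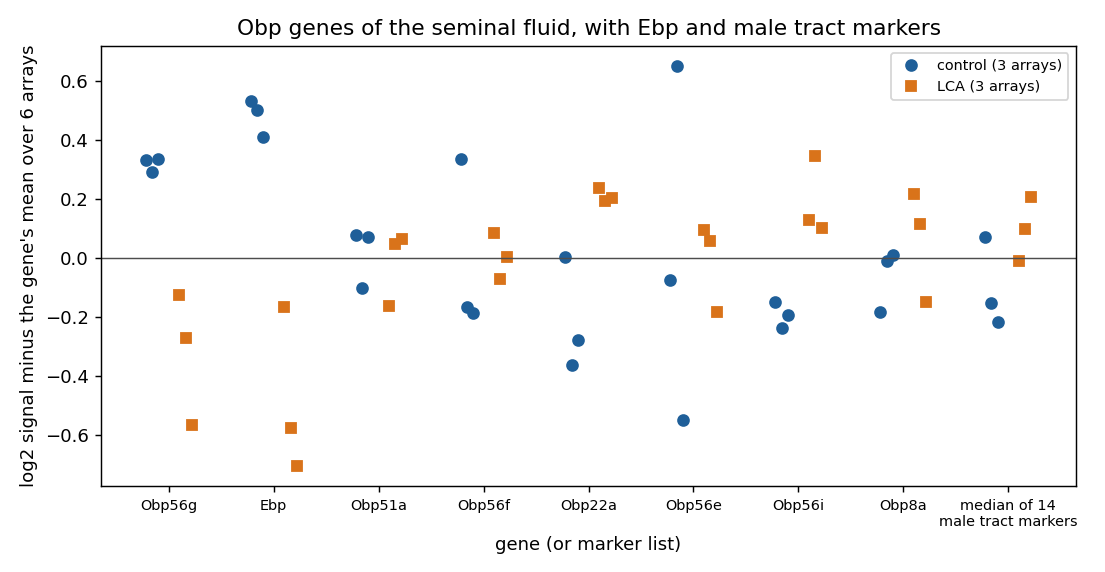
Log2 signal minus the gene's mean over 6 arrays (y axis) for the 7 seminal fluid Obp genes, Ebp and the per-array median of 14 male tract markers (x axis), in control (blue circles) and LCA arrays (orange squares). Obp56g and Ebp lie lower in all LCA arrays, Obp22a and Obp56i lie higher in all of them, and the others overlap.

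Several bright members outside the seminal fluid set were lower. Obp56d and Obp56a are made in the head, among other places. Obp56d read 11.77, 12.04 and 11.97 in control and 11.51, 11.40 and 10.72 in LCA arrays. Obp56a read 10.80, 10.91 and 10.67 in control and 10.51, 10.35 and 9.67 in LCA arrays. In both genes the groups did not overlap, and LCA replicate 3 was well below the other LCA arrays. The differences were −0.72 ± 0.21 for Obp56d and −0.62 ± 0.21 for Obp56a (limma, adjusted p = 0.214 and 0.263). Without LCA replicate 3 they were −0.47 and −0.37. Obp99c was likewise lowest in LCA replicate 3, with 12.42, 12.59 and 12.74 in control and 12.32, 12.20 and 11.92 in LCA arrays (−0.44 ± 0.13, limma adjusted p = 0.229). Of the 8 fat body markers 6 were also lowest in LCA replicate 3, and the list had per-array medians of −0.049, −0.15 and −0.46 in LCA and 0.11, 0.12 and 0.25 in control arrays. Of the 11 antenna markers 3 were lowest in that array, and the share of all genes lowest there was not counted. Obp99b, found as a gene of the fat body, read 11.11 in LCA replicate 3, its highest LCA value. The part of the fat body markers in Obp56d, Obp56a and Obp99c was not tested.

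Obp19d, known from fly antennae and other sense organs under the older name Pbprp2, was the bright member of its run. It read 11.16, 11.44 and 11.32 in control and 11.62, 11.94 and 11.81 in LCA arrays. No LCA array fell as low as a control array, and the difference was 0.48 ± 0.12 (limma, adjusted p = 0.17). The suffix of its probe set marks sets that may match more than 1 transcript. None of its 3 neighbours in the run had an unadjusted p under 0.05, with differences from −0.52 for Obp19a to 0.23 for Obp19b.

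Obp49a, a taste protein through which bitter compounds suppress the response to sugar, read 7.46, 7.45 and 7.34 in control and 7.83, 7.76 and 7.97 in LCA arrays. These groups lay apart and were tight, and the difference was 0.44 ± 0.090 (limma, adjusted p = 0.137). The other taste members were Obp19b, at 0.23 ± 0.15, and Obp57e, at 0.20 ± 0.10, and both overlapped between diets. Obp18a was 8.32, 8.06 and 8.21 in control and 7.82, 7.65 and 7.75 in LCA arrays, without overlap (−0.46 ± 0.10, limma adjusted p = 0.146).

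In the run of the 57 group, Obp57b alone separated the diets. It read 8.96, 8.82 and 8.88 in control and 8.66, 8.57 and 8.40 in LCA arrays, a difference of −0.34 ± 0.10 (limma, adjusted p = 0.209). The adjacent Obp57a (−0.18 ± 0.11) and Obp57c (−0.094 ± 0.15) overlapped between diets, and whether Obp57b differed from them in its response was not tested. Obp83ef, a dim gene, ran from 4.41 to 4.51 in control and from 3.87 to 4.35 in LCA arrays (−0.36 ± 0.13, limma adjusted p = 0.273). The adjacent Obp83cd, between 4.01 and 4.14 in all arrays, also did not overlap, with a difference of −0.096 ± 0.073, nor did the dim Obp47b, with 0.11 ± 0.078.

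As in Obp56d and Obp56a, a single array lay far from the rest of its group in Obp99a, Obp44a and Obp99b. Obp99a read 7.73, 9.26 and 9.63 in control and 9.36, 9.41 and 9.57 in LCA arrays, so that control replicate 1 was far below the other 5 arrays. The difference was 0.57 ± 0.45 with all arrays and 0.0013 without control replicate 1. Obp44a, a protein of glial cells, read 10.86, 11.68 and 12.06 in control and 11.64, 11.71 and 11.71 in LCA arrays. It differed by 0.16 ± 0.28, and by −0.18 without control replicate 1. Testis markers were also lowest in that array, with a per-array median of −0.75 against −0.18 to 0.35 in the others.

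Obp99b, called tsx when it was found as a gene of the fat body under the control of the sex determination pathway, read 10.86, 11.22 and 11.23 in control and 10.78, 9.44 and 11.11 in LCA arrays. LCA replicate 2 alone was low. The difference was −0.66 ± 0.40 with all arrays (limma, adjusted p = 0.434) and −0.16 without LCA replicate 2.

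Several antennal members spread widely among the pools of 1 diet. Of the 7 antennal genes listed, 6 were measured, all dim, and 0 had an unadjusted p under 0.05 by limma. Obp83b, or OS-E, a protein of the olfactory hairs, read 5.38, 6.18 and 7.62 in control and 6.04, 7.72 and 5.61 in LCA arrays. The groups covered the same range, with control replicate 3 and LCA replicate 2 high, and the difference was 0.065 ± 0.70. The SD within diets of Obp83b was 1.13, at the 99.8th percentile of all genes, whose median was 0.15.

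The same 2 pools were highest in further antennal genes. Obp19a read 4.08, 4.64 and 5.36 in control and 3.76, 5.28 and 3.49 in LCA arrays. A further probe set of Obp19a, dimmer, ran from 3.64 to 4.24 in control and from 3.75 to 3.96 in LCA arrays and had another order. Obp69a, which takes part in the response of males to a social pheromone, read 6.45, 6.70 and 7.18 in control and 6.41, 7.55 and 6.35 in LCA arrays. Control replicate 3 and LCA replicate 2 were the 2 highest arrays in these genes, in Obp83b and in Obp84a, that is in 4 of the 6 measured antennal genes. They were the 2 highest in 5.06% of all genes and 4.64% of dim genes, a comparison made after the values were seen. Over all Obp genes it was 5 of 47 (10.6%), the fifth being the bright Obp44a, which is no antennal member. Outside the family, the dim gustatory receptor Gr32a had this order too. It read 3.43, 4.14 and 5.10 in control and 4.13, 5.05 and 4.05 in LCA arrays. The order was not counted over the receptor families. Obp28a and Obp59a, a protein of humidity sensing, did not have this order. Nor did the bright Obp19d, which is known from antennae but was not in the antennal list. The share of antennal genes with this order therefore depends on the list.

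Of the 11 antenna markers, lush and a10 had this order and the other 9 did not. The pheromone-binding lush, which is needed to sense the male pheromone cVA, read 5.71, 6.50 and 7.03 in control and 5.81, 6.76 and 5.39 in LCA arrays. The antennal protein a10 was 6.15, 6.09 and 6.69 in control and 6.05, 6.64 and 6.01 in LCA arrays. Snmp1, a membrane protein that works with lush in cVA sensing, did not follow that order: it was 7.54, 7.41 and 7.37 in control and 6.74, 6.38 and 6.71 in LCA arrays. Its difference was −0.83 ± 0.12 (limma, adjusted p = 0.0983). Over the 11 antenna markers 9 were lower in LCA arrays, with a median difference of −0.077, and their part in the antennal Obp values was not tested.

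**Figure D5:**
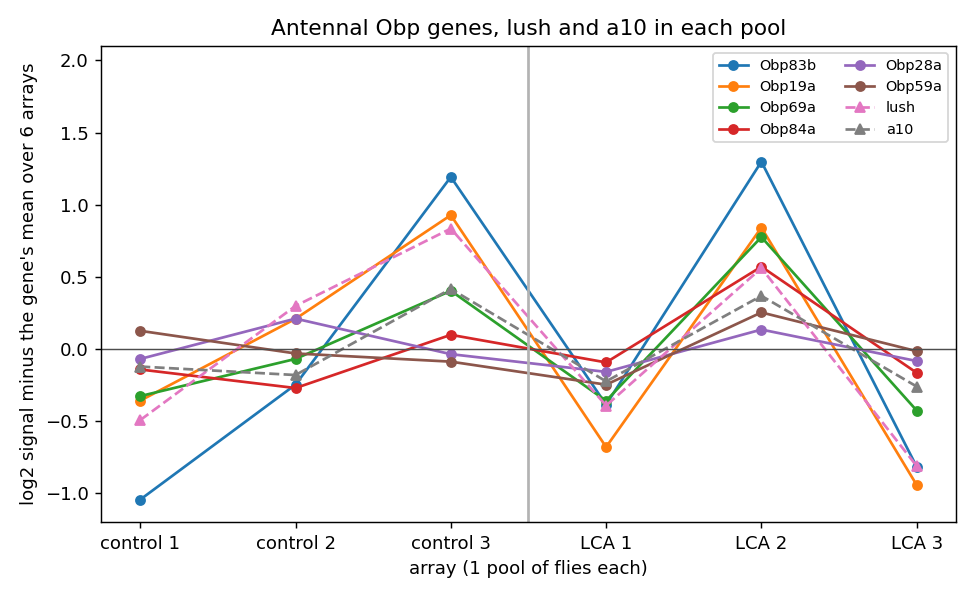
Log2 signal minus the gene's mean over 6 arrays (y axis) in each array (x axis, 1 pool of flies each) for 6 antennal Obp genes (solid lines), lush and a10 (dashed lines). Control replicate 3 and LCA replicate 2 are the 2 highest arrays for Obp83b, Obp19a, Obp69a, Obp84a, lush and a10, and not for Obp28a and Obp59a.

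The receptor families gave few low p-values. Of 166 odorant, gustatory and ionotropic receptor genes, 6 had an unadjusted p under 0.05 by limma (3.61%, against 15.4% of dim genes), 4 lower and 2 higher, and 0 passed the adjusted threshold. These receptors were dimmer than dim genes as a class, with a median mean of 3.27 against 5.55. Their median absolute log2 difference was 0.068 against 0.13. The low share is therefore not read as a lack of response. The medians of the log2 difference were −0.0092 for odorant, −0.0044 for gustatory and −0.0015 for ionotropic receptors, against −0.0016 over all genes. Of 12 CheA and CheB genes, which are secreted proteins of contact chemosensation, 0 passed either threshold. All 4 chemosensory proteins, another family of small secreted binding proteins, were lower, from −0.36 to −0.021, and 0 had an unadjusted p under 0.05.

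Of the 4 genes without a probe set of their own, Obp57d, Obp50b and Obp50c were covered by shared sets. Of the 2 sets shared by Obp57d and Cpr57A, a cuticle protein, the brighter read 7.68, 7.54 and 7.66 in control and 7.44, 7.29 and 7.14 in LCA arrays. Its difference, −0.34 ± 0.10 (limma, adjusted p = 0.228), cannot be assigned to either gene. The brighter set of Obp50b and Obp50c read 6.81, 7.46 and 7.77 in control and 7.82, 7.76 and 7.88 in LCA arrays, with control replicate 1 again the lowest.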

How the data were processed

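Total RNA of whole male flies was labelled as biotin cRNA and hybridised to 6 Affymetrix arrays, per the labels' protocols. The authors deposited 1 table of log2 signals for 18769 probe sets and 183 array controls. That the scale is log2 was read from the values (2.32 to 14.6), and the probe summary, background correction and normalization are not given in the sources used here. Such values carry no detection call. The array controls were left out of the fit.

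Gene names came from GEO's platform annotation and were brought up to date with the gene table of assembly Release 6 plus ISO1 MT, from which only names and gene order were taken. Of 18769, 13647 had 1 gene, 402 several and 4720 none here. Where a gene had several probe sets, the one of highest mean over the 6 arrays was kept.

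Diets were compared by a two-sided moderated test without covariates (limma version 3.58.1, R version 4.3.3, functions lmFit and eBayes), adjusted by Benjamini-Hochberg over all probe sets at 0.05. The fit was run on simulated data with independent random errors. Such data lack a shift shared by many genes of 1 array, so the run does not bear on such shifts here. Genes named are the bright Obp genes, those with an unadjusted p under 0.05 or non-overlapping groups at 1.5-fold, the extremes of each map-number group, the neighbours of the brightness threshold and members of the listed tissues. The members and lists were chosen with earlier results of these data known. Alternatives were scaling, filtering, a floor, the prior, the replicate number as a block, averaged probe sets and leaving out each array. Titles share replicate numbers. The deviations of same-numbered arrays from their group means had correlations of 0.26, −0.02 and 0.02 over all probe sets. Those of differently numbered arrays ran from −0.28 to 0.26, so the numbers were not taken as pairs. The highest of these was for control replicate 3 and LCA replicate 2, the arrays that were high in several antennal genes. The smallest median absolute difference between 2 arrays was 0.10. No protein or promoter sequences were used here.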

Additional observations from a re-analysis of the deposited data

How the results depend on the processing

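Under every alternative run, 0 Obp genes passed limma's adjusted threshold (lowest adjusted p = 0.0628, without control replicate 3). At an unadjusted p under 0.05 there were 5 to 8 lower and 3 to 5 higher Obp genes over all alternatives. Over the same alternatives the share of all genes at that p ran from 10.7% to 33.8%. Obp genes lower by 1.5-fold or more at an unadjusted p under 0.05 numbered 3, and 1 to 4 when 1 array was left out. Non-overlapping Obp genes numbered 13 to 17, except 9 among probe sets above the median, where 21 Obp genes were left. Groups with fewer arrays separate more easily, and the share of all genes without overlap was not counted under these alternatives. The non-overlapping counts are therefore not read as a result about the Obp genes. Over all probe sets a floor at the 25th percentile gave 6 past the adjusted threshold. The count at an unadjusted p, 3026, was 1947 among the brighter probe sets and 1666 to 4928 when 1 array was left out (0 past limma's adjusted threshold in each). The receptor families gave 6, 0 among probe sets above the median, and 2 to 7 when 1 array was left out. The Obp median was −0.057 after median centring and −0.042 to −0.0043 when 1 array was left out. The replicate number as a block gave 7 lower and 4 higher Obp genes, 5 receptor genes and 3535 probe sets at an unadjusted p. Past limma's adjusted threshold it gave 0 probe sets. The block does not enter the overlap count, which it could not change.

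The 11 Obp genes with an unadjusted p under 0.05 kept their direction in all 130 refits. Of 338 refits of 29 named genes, 28 in 14 genes changed sign, none past the threshold. After median centring Obp56f was −0.038 and Obp19c −0.034. With the floor, Obp50a was −0.016, Obp56c −0.022, Obp57e −0.022 and Obp58d 0.0097. When 1 array was left out the ranges were −0.091 to 0.041 for Obp51a, −0.18 to 0.42 for Obp44a, −0.080 to 0.18 for Obp56f and −0.22 to 0.025 for Obp57c. They were −0.055 to 0.083 for Obp19c, −0.0043 to 0.19 for Obp50d, −0.14 to 0.19 for Obp50a, −0.15 to 0.0072 for Obp58d and −0.22 to 0.0012 for Obp58b. They were −0.57 to 0.68 for Obp83b, −0.22 to 0.21 for Obp99d and −0.30 to 0.30 for Obp56e. The causes were not tested. The 30 dim genes have no detection call, so how far their signals stand above background is unknown.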
